A study of Rattus norvegicus with 9 samples.

Results

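The genes described here encode the contractile apparatus of smooth muscle, namely Acta2, Actg2, Tagln, Cnn1, Myh11, Des, Tpm1 and Tpm2. Every probe set of the rat array that the platform annotation assigns to any of these 8 genes was taken, which gave 21 of the 8740 probe sets that are not array controls, and 8 of the 4736 genes that have a probe set with a single symbol. Of the 21 probe sets, 17 carry 1 gene symbol and 4 are annotated to both Acta2 and Actc1, the cardiac alpha-actin, so no gene is named from those 4. There were 3 probe sets each for Acta2 and Myh11, 5 for Tpm1, 2 for Tagln and 1 each for Actg2, Cnn1, Des and Tpm2. The series hybridised total RNA of rat lung tissue to a short-oligonucleotide array and crossed breathing mode with inspired oxygen. The 4 groups were rats mechanically ventilated with 100% oxygen (ventilated 100%), rats mechanically ventilated with 21% oxygen (ventilated 21%), rats breathing spontaneously with 100% oxygen (spontaneous 100%) and rats breathing spontaneously with 21% oxygen (spontaneous 21%). The titles letter the 2 samples of each group a and b. One of them, letter b of the ventilated 100% group, was hybridised to 2 arrays, which were averaged and counted once, except where arrays are said to be entered apart. The strain, age and sex of the animals, the duration of the exposures and the ventilator settings are not given in the sources used here. Nothing in the labels states whether a and b are different animals, so every p-value reflects no more than the spread among these 8 samples, possibly a technical one.

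In smooth muscle, myosin filaments pull on actin filaments when calcium and calmodulin switch on the kinase that phosphorylates the myosin light chain. Myh11 encodes the smooth muscle myosin heavy chain, Acta2 and Actg2 the vascular and enteric smooth muscle actins, Cnn1 calponin, Tagln the actin-bundling protein transgelin, Tpm1 and Tpm2 tropomyosins that lie along the actin filament, and Des the intermediate filament protein desmin. In the lung these proteins are found in the walls of airways and vessels, in pericytes and in contractile fibroblasts. Des, Tpm1 and Tpm2 are also made in striated muscle, where Tpm1 and Tpm2 give muscle-specific splice forms, and many of these genes are controlled by serum response factor through a DNA element called the CArG box.

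The promoters of Acta2 and Actc1 are shown because the actin probe sets divided into opposite patterns by annotation, described further on, and because these were the windows in which CArG boxes were found. The windows are RefSeq sequences on the GRCr8 assembly and run from 250 bases before to 50 bases after the annotated start. Capitals mark matches to the CArG box, which consists of CC, a core of 6 A or T bases, and GG, with up to 1 other base allowed in the core. The search covered both strands, on which the element has the same form. The Acta2 window lies at chr1:241172454-241172753 on the minus strand and the Actc1 window at chr3:121271778-121272077 on the minus strand.
Acta2: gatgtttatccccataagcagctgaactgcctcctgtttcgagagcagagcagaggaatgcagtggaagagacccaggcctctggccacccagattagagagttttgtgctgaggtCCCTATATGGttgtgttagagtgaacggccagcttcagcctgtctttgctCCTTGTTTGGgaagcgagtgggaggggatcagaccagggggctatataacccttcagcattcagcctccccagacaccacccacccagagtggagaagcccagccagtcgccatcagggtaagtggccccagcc
Actc1: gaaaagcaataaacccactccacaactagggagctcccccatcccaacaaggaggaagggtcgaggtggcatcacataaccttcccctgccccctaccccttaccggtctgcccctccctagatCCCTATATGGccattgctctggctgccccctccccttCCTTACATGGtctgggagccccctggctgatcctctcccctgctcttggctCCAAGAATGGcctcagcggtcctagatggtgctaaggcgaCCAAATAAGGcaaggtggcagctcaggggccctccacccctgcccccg
The Acta2 window held 2 boxes, each with 1 base outside the A or T set, and the Actc1 window held 4 boxes, of which 1 had an uninterrupted core. Among all 33469 promoter windows of the same length, 9.42% held such a box and 1.64% held one with an uninterrupted core, while 0.846% held 2 or more. Windows were given for 6 of the 8 genes, and those of Actg2, Cnn1, Des, Tpm1 and Tpm2 held no match within these letters. The Actg2 window, at chr4:117593990-117594289 on the minus strand, lies inside the annotated gene at chr4:117579513-117604379. The Tpm2 window, at chr5:62575677-62575976 on the minus strand, also lies inside its gene, at chr5:62566712-62576066. That of Tpm1, at chr8:76543366-76543665 on the minus strand, ends just past the outer end of its gene, at chr8:76516654-76543661. These windows therefore cover little or none of the sequence before the outer ends of their genes. Tagln and Myh11 were not matched in the table.

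Values are deposited intensities, which have a linear scale and the same trimmed mean, between 800.5 and 801.1, on each of the 9 arrays. The bright end was not alike. The 99th percentile was 7361, 7111 and 8352 on the ventilated 100% arrays and between 9934 and 14547 on the others. Readings and sums given below are not adjusted for this. Between 18.4% and 20.0% of readings per array were at or below 0, and the highest reading of 15 probe sets for bacterial control genes was 140. Changes were fitted on the log2 scale with limma over all 5244 probe sets above a filter on low mean signal, and a change was called at a Benjamini-Hochberg adjusted p under 0.05. The lung label had its markers: 5 genes of alveolar type 2 cells, which make surfactant, summed to between 30514 and 68348 in the 8 samples. Of the 21 member probe sets, 17 were tested, and each of these had a mean above the limit of the filter, an intensity of 112, in all 4 groups. The number of arrays limits the precision, with 2 samples per group and 4 residual degrees of freedom. The description of 4 arrays carries an empty line for a lot: both spontaneous 21% arrays, the letter a array of the ventilated 100% group and 1 of the 2 arrays of its letter b sample. The other 5 arrays lack the line, among them every array of the ventilated 21% and spontaneous 100% groups. The comparisons of ventilated 21% with spontaneous 21% and of spontaneous 100% with spontaneous 21% therefore lie wholly across it, so member results there and counts of other lists are also given with the line as a block. In that fit the 9 arrays were entered apart, so the 2 arrays of the letter b sample counted separately. Only the ventilated 100% group has arrays on both sides of the line, so the block is estimated from that group. The interaction sets the ventilated 21% and spontaneous 100% groups against the others, so it also lies largely across the line.

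Member probe sets were called most often in the comparisons that involve the spontaneous 100% group. Ventilated 100% against spontaneous 100% gave 11 calls among 17 probe sets, 5 higher and 6 lower, where 26.9% of all tested probe sets were called (16.6% higher and 10.4% lower). Spontaneous 100% against spontaneous 21% gave 8 calls, 3 higher and 5 lower, against 16.8% of all tested (7.06% higher and 9.71% lower). Ventilated 100% against ventilated 21% gave 5 calls, 2 higher and 3 lower, against 35.1% of all tested (20.7% higher and 14.4% lower). Ventilated 21% against spontaneous 21% gave 1 call, a lower one, against 14.5% of all tested (7% higher and 7.49% lower). Ventilated 100% against spontaneous 21% also gave 1 lower call, against 14.5% of all tested (7.49% higher and 7.02% lower). The ventilation change differed between the oxygen levels (interaction) for 8 probe sets, 4 in each direction, against 27.4% of all tested (16.9% higher and 10.5% lower), and the moderated F test over the 4 groups called 11, against 42.7% of all tested. The comparisons share groups and are not independent of each other. Nor are the 17 probe sets, which repeat 8 genes and include 3 annotated to both Acta2 and Actc1. Taking the brightest single-symbol probe set of each of the 8 genes, 3 were higher and 2 lower in ventilated 100% against spontaneous 100%. Spontaneous 100% against spontaneous 21% then gave 0 higher and 3 lower, and ventilated 100% against ventilated 21% gave 1 higher and 3 lower.

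The median log2 change of the 17 probe sets was -0.30 for ventilated 100% against spontaneous 100% and 0.09 for spontaneous 100% against spontaneous 21%, beside medians of 0.13 and -0.05 over all tested probe sets. For ventilated 100% against ventilated 21% it was 0.04, beside 0.14 over all, and for ventilated 21% against spontaneous 21% it was -0.10, beside -0.06 over all. The median of 0.09 between the spontaneous groups covered members called in both directions. Quantile normalization, which forces 1 distribution on all arrays, brought the median over all probe sets to -0.01 for ventilated 100% against spontaneous 100% and to 0.01 for ventilated 100% against ventilated 21%, a shift of more than 0.1. For ventilated 100% against ventilated 21% it also changed the split of all calls to 816 higher and 864 lower, against 1085 higher and 756 lower as deposited, and for the interaction to 714 and 680, against 888 and 551. With the lot line as a block, the calls among members numbered 9 for ventilated 100% against spontaneous 100%, 2 for spontaneous 100% against spontaneous 21% and 2 for ventilated 100% against ventilated 21%. Of all tested probe sets, 9.1%, 2.44% and 17.1% were then called in these 3 comparisons. Ventilated 21% against spontaneous 21% then gave 0 member calls by limma, with 1 probe set at an unadjusted p under 0.05, where 2.02% of all tested were called.

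Myh11, the smooth muscle myosin heavy chain, had the largest ratio between group means among the tested probe sets, 4.06 for ventilated 100% over ventilated 21%. Its probe set X16262_s_at read 2095 and 2125 in ventilated 100% lungs, 458 and 581 in ventilated 21% lungs, 717 and 410.1 in spontaneous 100% lungs, and 2385 and 1824 in spontaneous 21% lungs. Both samples of each single-exposure group lay far below all 4 samples of the ventilated 100% and spontaneous 21% groups, and within each of these pairs of groups the readings overlapped. The log2 change was -1.93 ± 0.25 (SE) for ventilated 21% against spontaneous 21% (adjusted p = 0.0033) and -1.86 ± 0.25 for spontaneous 100% against spontaneous 21% (adjusted p = 0.0032). Here, as for every member in these bulk samples, fewer cells of a type and less RNA per cell cannot be told apart. It was 1.88 ± 0.25 for ventilated 100% against spontaneous 100% (adjusted p = 0.0026) and 1.95 ± 0.25 for ventilated 100% against ventilated 21% (adjusted p = 0.0014). Ventilated 100% lungs differed from spontaneous 21% lungs by 0.02 ± 0.25 (adjusted p = 0.98), and the interaction was 3.82 ± 0.36 (adjusted p = 3.9e-04).

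The 2 Myh11 changes that lie across the lot line did not pass the threshold with the line as a block. They were then -1.93 for ventilated 21% against spontaneous 21% (adjusted p = 0.062) and -1.86 for spontaneous 100% against spontaneous 21% (adjusted p = 0.058). The changes of ventilated 100% against spontaneous 100% (1.88, adjusted p = 0.012) and against ventilated 21% (1.95, adjusted p = 0.0073) passed it. The ventilated 100% sample that was on 2 arrays read 2142 on the array with the lot line and 2108 on the array without it. Of the other Myh11 probe sets, S61948_s_at read between 12.3 and 146, with 1 of 8 samples above the highest bacterial control reading, and X16261_i_at read between -106 and 27.9, so neither was tested.

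**Figure D1:**
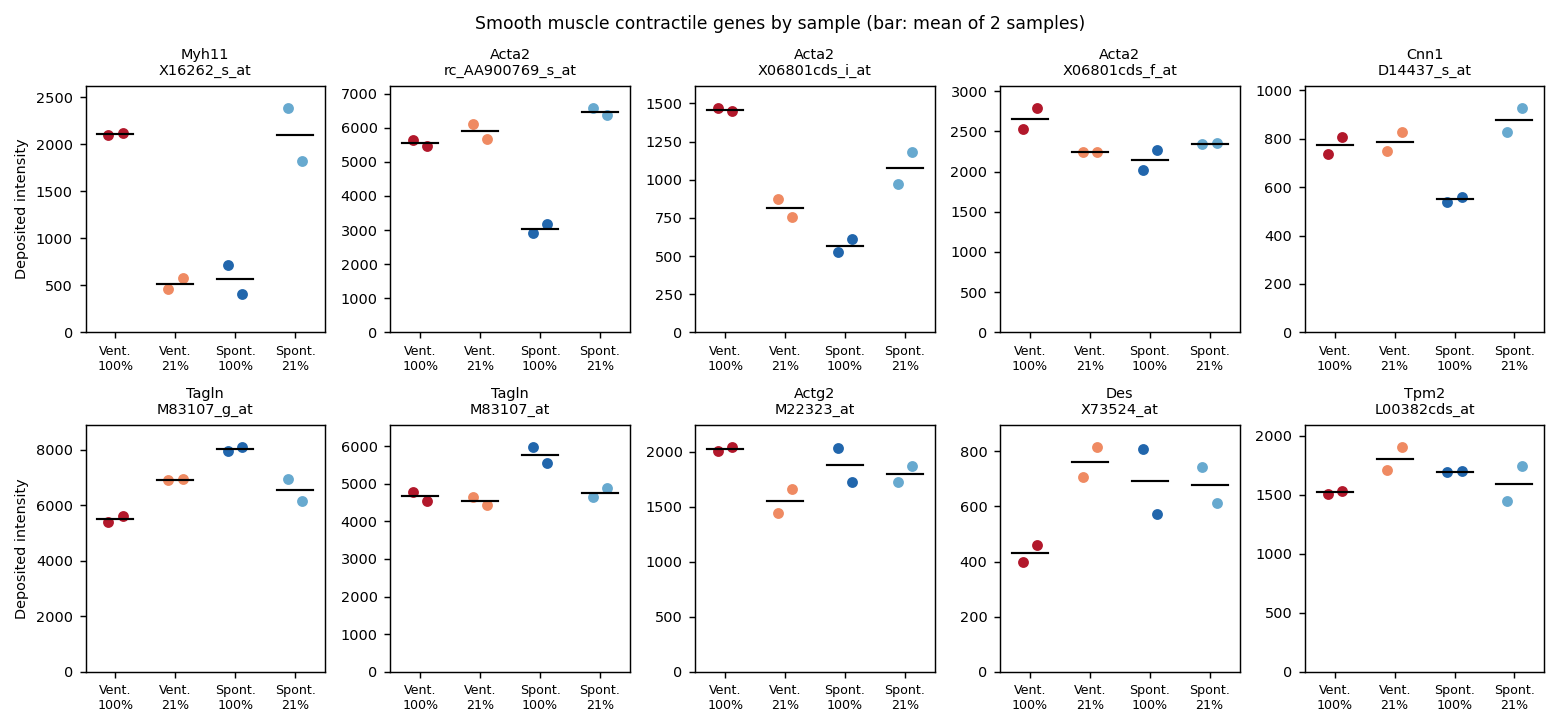
Deposited intensity (linear scale from 0) of probe sets of the smooth muscle genes in each of the 8 samples. Points are samples, bars are means of 2 samples, and groups run from ventilated 100% on the left to spontaneous 21% on the right. Myh11 reads at most 717 in the 4 single-exposure samples and at least 1824 in the others.

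Acta2, the vascular smooth muscle actin, had its lowest mean in the spontaneous 100% group on all 3 probe sets, and 2 of the 3 were called lower there than in spontaneous 21% lungs. Probe set rc_AA900769_s_at read 5636 and 5479 in ventilated 100% lungs, 6123 and 5664 in ventilated 21% lungs, 2911 and 3167 in spontaneous 100% lungs, and 6576 and 6362 in spontaneous 21% lungs. Both spontaneous 100% samples stood clearly below the other 6, and no 2 groups overlapped. The log2 change was 0.86 ± 0.11 for ventilated 100% against spontaneous 100% (adjusted p = 0.0021) and -1.08 ± 0.11 for spontaneous 100% against spontaneous 21% (adjusted p = 7.8e-04). Both passed with the lot line as a block (adjusted p = 0.0096 and 0.018). The comparison of ventilated 21% with spontaneous 21% gave -0.13 (adjusted p = 0.44), and that of ventilated 100% with ventilated 21% gave -0.08 (adjusted p = 0.58). The interaction was 1.00 ± 0.15 (adjusted p = 0.0029), and its adjusted p was 0.081 with the lot line as a block.

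The second Acta2 probe set, X06801cds_i_at, read 1469 and 1449 in ventilated 100% lungs, 875 and 753 in ventilated 21% lungs, 526 and 609.9 in spontaneous 100% lungs, and 974 and 1179 in spontaneous 21% lungs. The 4 groups did not overlap, with ventilated 100% highest and spontaneous 100% lowest. It was 1.30 ± 0.16 higher on the log2 scale in ventilated 100% than in spontaneous 100% lungs (adjusted p = 0.0018) and 0.81 ± 0.16 higher in ventilated 100% than in ventilated 21% lungs (adjusted p = 0.0062). Spontaneous 100% against spontaneous 21% gave -0.87 ± 0.16 (adjusted p = 0.0099), which was -0.88 with an adjusted p of 0.11 with the lot line as a block and did not pass without the letter a sample of spontaneous 100% (adjusted p = 0.058). The interaction was 1.69 ± 0.22 (adjusted p = 0.0016), with an adjusted p of 0.06 under the lot block. The third probe set, X06801cds_f_at, was not called in any comparison, with 2524 and 2788 in ventilated 100% lungs, 2245 and 2241 in ventilated 21% lungs, 2023 and 2263 in spontaneous 100% lungs, and 2342 and 2349 in spontaneous 21% lungs. Both ventilated 100% samples were above the other 6, and the change against spontaneous 100% was 0.30 (adjusted p = 0.089). Differences between the Acta2 probe sets were not tested.

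The 3 tested probe sets annotated to both Acta2 and Actc1 ran the other way. Probe set rc_AI104567_g_at read 3318 and 3500.4 in ventilated 100% lungs, 2989 and 2728 in ventilated 21% lungs, 6526 and 6696 in spontaneous 100% lungs, and 2282 and 3247 in spontaneous 21% lungs. Both spontaneous 100% samples were far above the other 6. On the log2 scale it changed by -0.95 ± 0.16 for ventilated 100% against spontaneous 100% (adjusted p = 0.0065), 1.27 ± 0.16 for spontaneous 100% against spontaneous 21% (adjusted p = 0.0027) and -1.02 ± 0.23 for the interaction (adjusted p = 0.014). The interaction lost its call with the lot line as a block (adjusted p = 0.15), without the letter a sample of ventilated 21% (adjusted p = 0.05) and without the filter (adjusted p = 0.062). X80130cds_i_at gave -0.86 ± 0.13 (adjusted p = 0.0042) and 0.55 ± 0.13 (adjusted p = 0.026) in the first 2 of these comparisons, and X80130cds_f_at gave -0.43 ± 0.11 for ventilated 100% against spontaneous 100% (adjusted p = 0.024). For all 3 probe sets both spontaneous 100% samples read above every other sample. The change of X80130cds_i_at between the spontaneous groups lost its call whichever 1 of their 4 samples was left out, and with the lot line as a block (adjusted p = 0.21). That of X80130cds_f_at lost it whichever 1 of the 4 samples of the 100% groups was left out, with the lot line as a block (adjusted p = 0.11) and after cyclic loess normalization (-0.26, adjusted p = 0.1). The fourth shared probe set, rc_AI104567_at, read between 11.3 and 235 and was not tested.

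Cnn1, which encodes the actin-binding protein calponin, was also lowest in spontaneous 100% lungs. D14437_s_at read 739 and 806 in ventilated 100% lungs, 748 and 829 in ventilated 21% lungs, 541 and 559.6 in spontaneous 100% lungs, and 828 and 927 in spontaneous 21% lungs. Both spontaneous 100% samples lay below the other 6, which overlapped from group to group. The log2 change of spontaneous 100% against spontaneous 21% was -0.63 ± 0.14 (adjusted p = 0.023), and that of ventilated 100% against spontaneous 100% was 0.46 ± 0.14 (adjusted p = 0.047). Leaving out each of the 4 spontaneous samples, the first had an adjusted p between 0.051 and 0.089, and with the lot line as a block 0.17. The second lost its call whichever 1 of the 8 samples was left out (adjusted p between 0.052 and 0.15), and after quantile normalization it was 0.24 (adjusted p = 0.28).

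Tagln, the gene of transgelin, had its highest readings in spontaneous 100% lungs. M83107_g_at read 5410.3 and 5609 in ventilated 100% lungs, 6896 and 6927 in ventilated 21% lungs, 7941 and 8079 in spontaneous 100% lungs, and 6942 and 6149 in spontaneous 21% lungs. Both ventilated 100% samples were below and both spontaneous 100% samples above all others, while the 2 groups at 21% overlapped. The log2 change was -0.54 ± 0.11 for ventilated 100% against spontaneous 100% (adjusted p = 0.012), -0.33 ± 0.11 for ventilated 100% against ventilated 21% (adjusted p = 0.049) and -0.62 ± 0.15 for the interaction (adjusted p = 0.021). Quantile normalization gave -0.27 (adjusted p = 0.076), -0.10 (adjusted p = 0.46) and -0.36 (adjusted p = 0.079), so none of the 3 passed there. On the deposited scale the first did not pass without the letter a sample of ventilated 100% (adjusted p = 0.078). The second lost its call whichever 1 of the 4 ventilated samples was left out (adjusted p between 0.12 and 0.2), and the third without either ventilated 100% sample, either ventilated 21% sample or the letter b sample of spontaneous 21%. With the lot line as a block the adjusted p of the 3 was 0.052, 0.16 and 0.32. The other Tagln probe set, M83107_at, read 4794 and 4549 in ventilated 100% lungs and 5967 and 5559 in spontaneous 100% lungs and was not called (log2 change -0.30, adjusted p = 0.072).

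Actg2, the enteric smooth muscle actin, was not called in any comparison. M22323_at read 2008 and 2038 in ventilated 100% lungs, 1444 and 1663 in ventilated 21% lungs, 2034 and 1720.2 in spontaneous 100% lungs, and 1721 and 1869 in spontaneous 21% lungs. The ventilated 21% samples were below the other 6, which overlapped. Its largest log2 difference was 0.38 for ventilated 100% against ventilated 21% (adjusted p = 0.061). Des, the gene of desmin, had its lowest readings in ventilated 100% lungs. X73524_at read 399 and 462 in ventilated 100% lungs, 705 and 814 in ventilated 21% lungs, 810.4 and 571 in spontaneous 100% lungs, and 745 and 612 in spontaneous 21% lungs. Both ventilated 100% samples were below the other 6, and the other 3 groups overlapped. The log2 change of ventilated 100% against ventilated 21% was -0.76 ± 0.20 (adjusted p = 0.022), and that against spontaneous 100% was -0.62 (adjusted p = 0.057). The call for Des did not pass without the letter a sample of ventilated 100% (adjusted p = 0.11), without either ventilated 21% sample (adjusted p = 0.056 and 0.12), without the filter (adjusted p = 0.066) or with the lot line as a block (adjusted p = 0.1). Quantile normalization gave -0.98 (adjusted p = 0.0073), and there the difference of Des from spontaneous 100% passed as well (-0.83, adjusted p = 0.021).

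The 4 tested probe sets of Tpm1, the alpha-tropomyosin gene, did not move together. M60666_s_at read 4025 and 4116 in ventilated 100% lungs, 3854 and 3956 in ventilated 21% lungs, 2592 and 2518 in spontaneous 100% lungs, and 4383 and 3995 in spontaneous 21% lungs. Both spontaneous 100% samples were far below the other 6. The log2 change was 0.66 ± 0.11 for ventilated 100% against spontaneous 100% (adjusted p = 0.0051), -0.70 ± 0.11 for spontaneous 100% against spontaneous 21% (adjusted p = 0.0052) and 0.76 ± 0.15 for the interaction (adjusted p = 0.0080). With the lot line as a block the adjusted p of these was 0.016, 0.058 and 0.12.

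Tpm1 X02412_at read 1504 and 1273 in ventilated 100% lungs, 1609 and 1923 in ventilated 21% lungs, 4853 and 4904 in spontaneous 100% lungs, and 1084 and 2187 in spontaneous 21% lungs. The same 2 spontaneous 100% samples that were lowest on M60666_s_at were here far above the other 6. X02412_at changed by -1.79 ± 0.28 on the log2 scale for ventilated 100% against spontaneous 100% (adjusted p = 0.0048), 1.64 ± 0.28 for spontaneous 100% against spontaneous 21% (adjusted p = 0.0084) and -1.98 ± 0.39 for the interaction (adjusted p = 0.0085). The change between the spontaneous groups did not pass without either spontaneous 100% sample (adjusted p = 0.051 and 0.053), and under the lot block the adjusted p of the 3 changes was 0.024, 0.12 and 0.2. Across the 8 samples the log2 values of the 2 probe sets had a Pearson r of -0.96, given as a description since the samples share their groups.

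Tpm1 M34134_s_at was lowest in ventilated 100% lungs, with 3311 and 3756, against 6019 and 5779 in ventilated 21% lungs, 6400.3 and 9057 in spontaneous 100% lungs, and 5349 and 6289.5 in spontaneous 21% lungs. Both ventilated 100% samples lay below the other 6, which overlapped in part. The log2 change was -1.11 ± 0.17 against spontaneous 100% (adjusted p = 0.0049), -0.74 ± 0.17 against ventilated 21% (adjusted p = 0.013) and -0.72 ± 0.17 against spontaneous 21% (adjusted p = 0.029). The last was the only member call in that comparison, and it had an adjusted p between 0.052 and 0.16 when any 1 sample of the ventilated groups or of spontaneous 21% was left out. The change against ventilated 21% did not pass without the letter a sample of ventilated 100% (adjusted p = 0.082) or without either ventilated 21% sample (adjusted p = 0.066 and 0.058). The interaction was -1.13 ± 0.25 (adjusted p = 0.012), and the ventilated 100% sample on 2 arrays read 3229 on the array with the lot line and 4283 on the array without it. With the line as a block the interaction was -0.46 (adjusted p = 0.62), the change against ventilated 21% was -0.46 (adjusted p = 0.16), and the change against spontaneous 100% was -0.82 (adjusted p = 0.048).

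The remaining Tpm1 probe sets gave no call. M15474cds_s_at read 2210.2 and 2986 in ventilated 100% lungs, 1235 and 3233 in ventilated 21% lungs, 3215 and 3508 in spontaneous 100% lungs, and 2814 and 2875 in spontaneous 21% lungs. Its 2 ventilated 21% samples were its lowest reading and one of its highest, and without the letter b sample the ventilated 21% group differed from spontaneous 21% by -1.18 (adjusted p = 0.027). Probe set rc_AI144767_s_at read between -13.8 and 79.1 and was not tested. Tpm2, the beta-tropomyosin gene, read 1511 and 1537 in ventilated 100% lungs, 1709 and 1903 in ventilated 21% lungs, 1692 and 1703 in spontaneous 100% lungs, and 1446 and 1745 in spontaneous 21% lungs on L00382cds_at. The readings of spontaneous 21% spanned those of both 100% groups, and the moderated F test did not call it (adjusted p = 0.42).

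**Figure D2:**
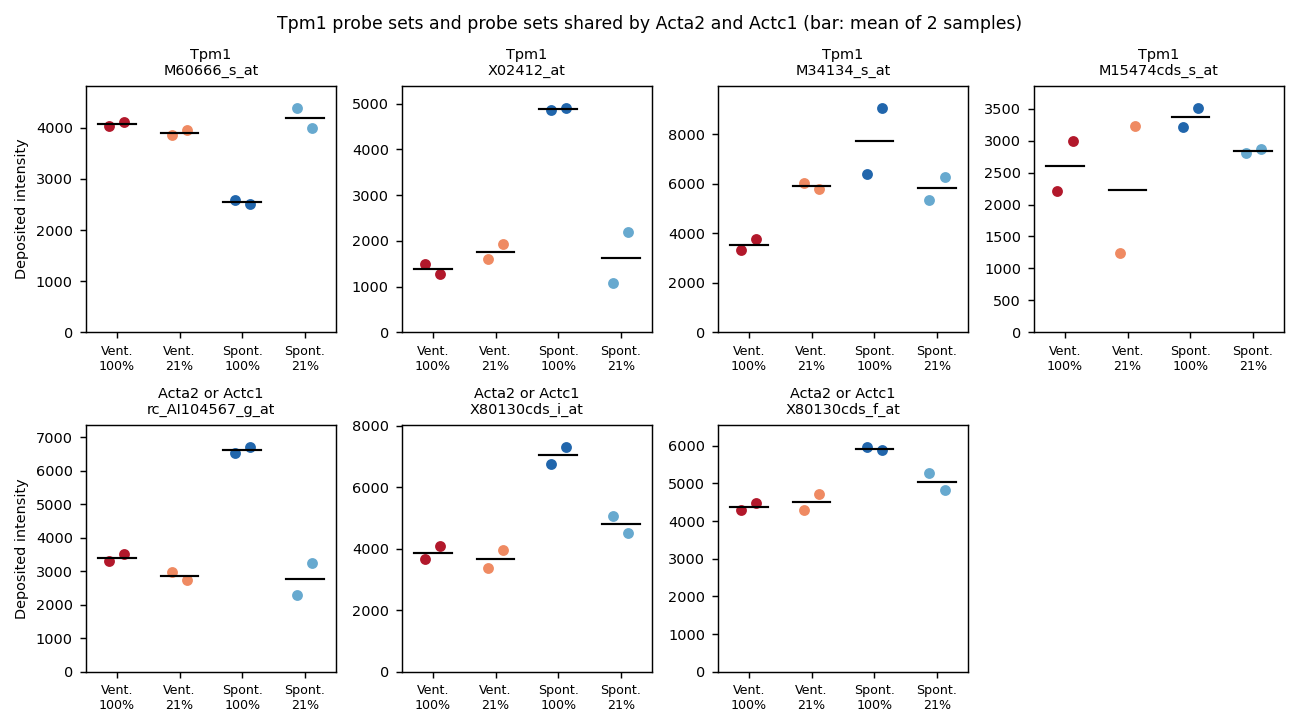
Deposited intensity (linear scale from 0) of the 4 tested Tpm1 probe sets and the 3 tested probe sets annotated to both Acta2 and Actc1. Points are samples and bars are means of 2 samples. The spontaneous 100% samples are lowest on Tpm1 M60666_s_at and highest on X02412_at and on the 3 shared probe sets.

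**Figure D3:**
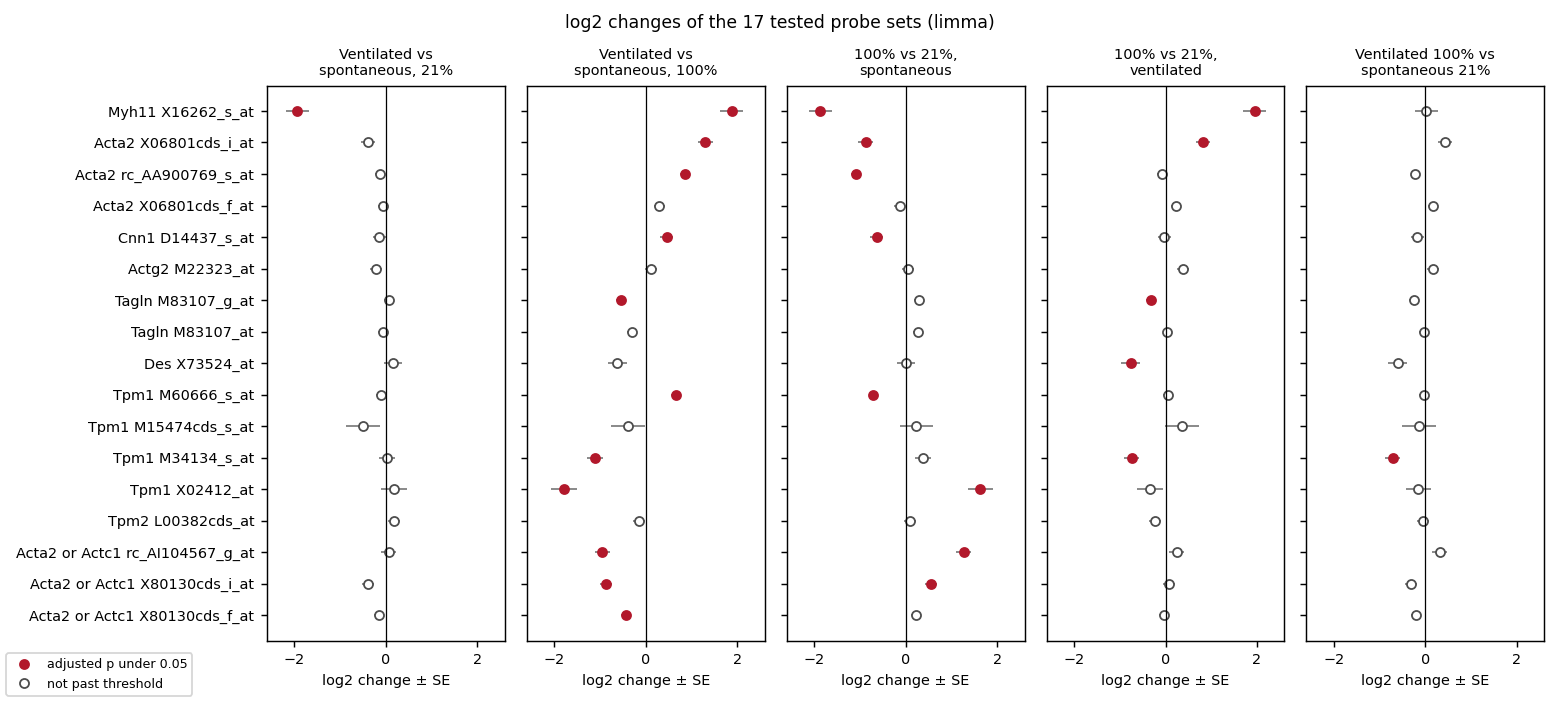
Log2 change with its standard error (horizontal axis) of the 17 tested probe sets in 5 comparisons, the first-named group over the other. Filled points have an adjusted p under 0.05. Myh11 is called in 4 of the 5 panels, and in the second panel 5 points are called higher and 6 lower.

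The markers of striated muscle varied widely between the groups and moved with several members. The summed intensity of 28 skeletal muscle genes was 5971 to 6043 in ventilated 100% lungs, 11585 to 11946 in ventilated 21% lungs, 33218 to 34009.6 in spontaneous 100% lungs, and 9704 to 9859 in spontaneous 21% lungs. That of 21 heart muscle genes was 15540 to 16489 in ventilated 100% lungs, 22236 to 23254 in ventilated 21% lungs, 33721 to 35779.5 in spontaneous 100% lungs, and 15944 to 16605 in spontaneous 21% lungs. Both sums were highest in spontaneous 100% lungs, where the shared Acta2 and Actc1 probe sets, Tpm1 X02412_at and Tagln M83107_g_at were also highest, and the skeletal sum was lowest in ventilated 100% lungs. Of 20 tested skeletal muscle genes, 11 fell in ventilated 100% against spontaneous 100% lungs, where 10.4% of all tested probe sets fell, and 10 rose in spontaneous 100% against spontaneous 21% lungs, where 7.06% rose. Of 16 tested heart muscle genes, 11 fell in the first comparison and 9 rose in the second. With the lot line as a block, under which 19 skeletal and 16 heart genes were tested, 9 and 8 fell in the first comparison and 6 and 6 rose in the second, where 2.44% of all tested fell in the first and 1.35% rose in the second. The skeletal list had a median log2 change of -1.13 and the heart list of -1.04 in the first comparison, beside 0.13 over all tested probe sets.

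Among the defining markers, the fast skeletal troponin C gene Tnnc2 (rc_AI639532_at) read 23.8 and 58.5 in ventilated 100% lungs, 534 and 469 in ventilated 21% lungs, 3674 and 4065 in spontaneous 100% lungs, and 329.9 and 415 in spontaneous 21% lungs. Both ventilated 100% readings of Tnnc2 were under the highest bacterial control reading, and both spontaneous 100% readings were far above all others. The skeletal actin gene Acta1 (J00692_at) read 649.7 and 753 in ventilated 100% lungs, 3405 and 3495 in ventilated 21% lungs, 7525 and 6713 in spontaneous 100% lungs, and 1992 and 1804 in spontaneous 21% lungs. Of the heart genes, the atrial natriuretic peptide gene Nppa averaged 340 ± 17.3 (SD, n = 2) in ventilated 100% lungs, 584 ± 45.5 in ventilated 21% lungs, 626 ± 145 in spontaneous 100% lungs and 396 ± 23.5 in spontaneous 21% lungs. The heart myosin gene Myh6 did not share that order, with averages of 443 ± 1.81 in ventilated 100% lungs, 377 ± 139 in ventilated 21% lungs, 410 ± 23.5 in spontaneous 100% lungs and 328 ± 39.2 in spontaneous 21% lungs. With Tagln M83107_g_at the r over the 8 samples was 0.81 for Nppa and -0.16 for Myh6. Over the 8 samples the log2 values of Tnnc2 had a Pearson r of 0.96 with Tagln M83107_g_at, 0.92 with Tpm1 M34134_s_at, 0.86 with Tpm1 X02412_at and 0.63 with Des. The r was -0.94 with Acta2 X06801cds_i_at, -0.85 with Tpm1 M60666_s_at, -0.76 with Acta2 rc_AA900769_s_at, -0.73 with Myh11 and -0.70 with Cnn1. It was weaker with Tpm2 (0.49), Tpm1 M15474cds_s_at (0.30) and Actg2 (-0.24). Over the tested member probe sets the r ranged from -0.37 to 0.63 for Myh6 and from -0.91 to 0.81 for Nppa. These correlations describe 8 samples in 4 groups and carry no test, and the part of striated muscle RNA in the members' values was not tested.

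Markers of other cell types also differed between the groups. The 15 fibroblast and matrix genes summed to between 78714 and 79387 in ventilated 100% lungs, 48586 and 53620 in ventilated 21% lungs, 65864 and 69951.5 in spontaneous 100% lungs, and 81282 and 85139 in spontaneous 21% lungs. The 10 endothelial genes summed to between 17401 and 19506 in ventilated 100% lungs, 12224 and 13475 in ventilated 21% lungs, 11726 and 11918 in spontaneous 100% lungs, and 19519 and 22028 in spontaneous 21% lungs. Both sums, like Myh11, were lower in all 4 single-exposure samples than in the other 4 samples. All single-exposure arrays lack the lot line, so this split lies largely across it. The interaction was called positive for 9 of 15 tested fibroblast and 7 of 9 tested endothelial genes, where 16.9% of all tested probe sets were. With the lot line as a block it was called positive for 5 and 1 of them, where 1.91% of all tested were. The 5 pericyte genes summed to between 2630.3 and 2679 in ventilated 100% lungs, 1838 and 1961 in ventilated 21% lungs, 1591 and 1805 in spontaneous 100% lungs, and 3008 and 3299.9 in spontaneous 21% lungs. Most of that sum was 1 gene, Anpep, and Pdgfrb read below 0 in all 8 samples, so the sum does not show pericyte genes moving together. The 11 T lymphocyte genes summed to between 31007 and 32897 in ventilated 21% lungs and to no more than 3072 in any sample of the other groups. The 9 brown fat genes summed to between 8224 and 9910.3 in ventilated 100% lungs, 20691 and 22108 in ventilated 21% lungs, 10885 and 11067 in spontaneous 100% lungs, and 11595 and 11940.5 in spontaneous 21% lungs. The brown fat uncoupling protein gene Ucp1 averaged 34.5 ± 4.79 in ventilated 100% lungs, 6213 ± 48.3 in ventilated 21% lungs, 1093 ± 7.99 in spontaneous 100% lungs and 259.6 ± 16.4 in spontaneous 21% lungs. Not all of the list moved with Ucp1. Of 8 tested brown fat genes, 5 rose and 1 fell in ventilated 21% against spontaneous 21% lungs, where 7% of all tested probe sets rose and 7.49% fell. In ventilated 100% against spontaneous 100% lungs 2 rose and 4 fell, where 16.6% rose and 10.4% fell. With the lot line as a block the counts were 2 and 0, then 2 and 3 (shares 0.953% and 1.07%, then 6.66% and 2.44%). The 5 alveolar type 2 genes summed to between 30514 and 33541 in ventilated 100% lungs, 46114 and 50139.6 in ventilated 21% lungs, 40524 and 53185 in spontaneous 100% lungs, and 57750.1 and 68348 in spontaneous 21% lungs. The 6 squamous epithelial genes summed to between 1577 and 2582 in ventilated 100% lungs, 2820.4 and 3978 in ventilated 21% lungs, 11298 and 11761 in spontaneous 100% lungs, and 4129 and 4627 in spontaneous 21% lungs. Of the 3 tested, 1 was called higher in spontaneous 100% than in spontaneous 21% lungs, where 7.06% of all tested probe sets were. With the lot line as a block it was the keratin gene Krt4 (2.44, adjusted p = 0.0099 by limma), where 1.35% were. Sprr1a (0.59, adjusted p = 0.57) and Krt14 (0.05, adjusted p = 0.98) were not called there, so the sum does not show squamous genes moving together. The part of these cell types in the members' values was not tested.

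**Figure D4:**
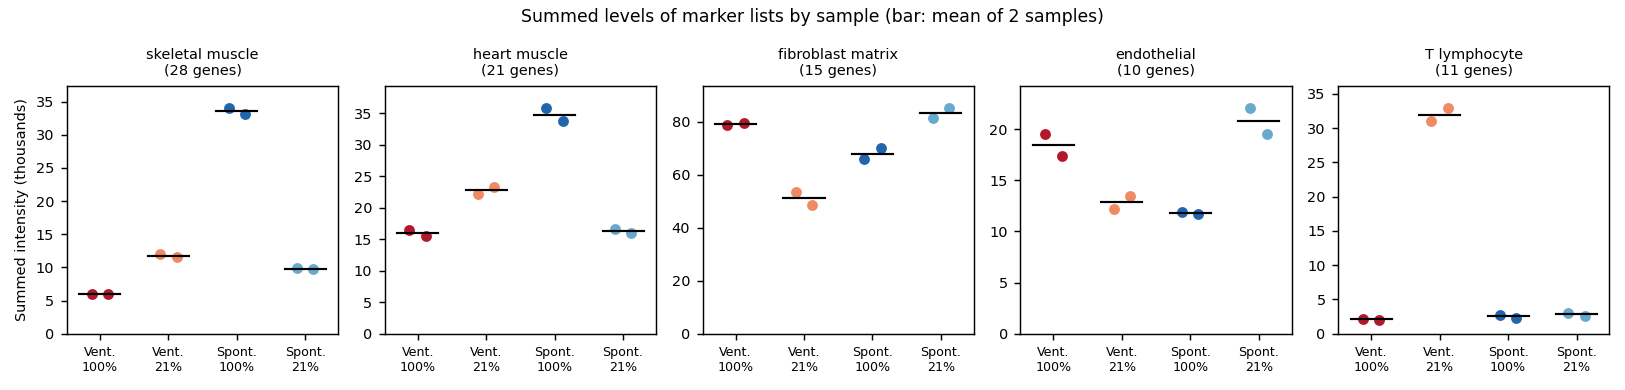
Summed deposited intensity (axis in units of 1000, linear from 0) of the marker lists of 5 other cell types in each sample. Points are samples and bars are means of 2 samples. The skeletal and heart sums are highest in spontaneous 100%, the fibroblast and endothelial sums are lowest in the single-exposure groups, and the T lymphocyte sum is 31007 or more in ventilated 21% and at most 3072 elsewhere. All arrays of the single-exposure groups lack the lot line.

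The wider contractile apparatus, a list of 20 measured genes for light chains, cytoplasmic actins, actin-binding proteins, integrins, vimentin, potassium channel subunits and myosin phosphatase subunits, showed calls in both directions. Of 19 tested, 4 rose and 2 fell in ventilated 100% against ventilated 21% lungs, where 20.7% of all tested probe sets rose and 14.4% fell, and 3 fell in spontaneous 100% against spontaneous 21% lungs, where 9.71% fell. With the lot line as a block, 3 rose and 0 fell in the first comparison (1 lower at an unadjusted p under 0.05 by limma) and 0 fell in the second (3 at an unadjusted p under 0.05). Of all tested probe sets, 10.6% then rose and 6.48% fell in the first, and 1.09% fell in the second. Tln1, the gene of talin, which links integrins to actin, read 1483 and 1703 in ventilated 100% lungs, 618 and 915 in ventilated 21% lungs, 901 and 717 in spontaneous 100% lungs, and 1569 and 1250.5 in spontaneous 21% lungs. As for Myh11, all 4 single-exposure samples of Tln1 lay below the other 4, with an interaction of 1.81 ± 0.30 (adjusted p = 0.0042, and 0.077 with the lot line as a block). Cald1, the gene of caldesmon, which inhibits actomyosin, was higher in ventilated 100% than in ventilated 21% lungs by 1.06 ± 0.16 (adjusted p = 0.0024). The regulatory light chain gene Myl9 read 4090 and 4779 in ventilated 100% lungs, 3815 and 3744 in ventilated 21% lungs, 5280.1 and 5917 in spontaneous 100% lungs, and 4482 and 4641.5 in spontaneous 21% lungs. Without the lot block, Myl9 was not called in the 4 pairwise comparisons that change 1 exposure. Under that block it was called higher by limma in ventilated 100% than in ventilated 21% lungs (0.48, adjusted p = 0.041). The cytoplasmic actin genes Actb and Actg1 were lower in ventilated 100% than in ventilated 21% lungs, by -0.64 ± 0.15 (adjusted p = 0.013) and -0.69 ± 0.13 (adjusted p = 0.0059) on the log2 scale. Neither passed with the lot line as a block (adjusted p = 0.16 and 0.081). Against spontaneous 21% lungs both were lower in ventilated 100% lungs by limma under that block, by -0.88 for Actb (adjusted p = 0.0070) and -0.95 for Actg1 (adjusted p = 0.0027).

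Regulators of smooth muscle transcription, growth factor signalling and calcium handling were among a list of 26 measured and 24 tested genes. Of the 24, 12 rose in ventilated 100% against spontaneous 100% lungs, where 16.6% of all tested probe sets rose, and 13 rose and 1 fell in ventilated 100% against ventilated 21% lungs, where 20.7% rose and 14.4% fell. In ventilated 21% against spontaneous 21% lungs 6 fell, where 7.49% of all tested fell, and the interaction was positive and called for 11, where 16.9% of all tested were. Under the lot block 23 of the list were tested, and 4 rose in the first comparison, 8 in the second, 0 fell in the third (6 at an unadjusted p under 0.05 by limma) and 2 had a called interaction. The shares of all tested probe sets were then 6.66%, 10.6%, 1.07% and 1.91%. Klf4, a zinc finger factor known to repress smooth muscle genes, read 1660.3 and 1903 in ventilated 100% lungs, 1085 and 1075 in ventilated 21% lungs, 687 and 589 in spontaneous 100% lungs, and 2148 and 2079 in spontaneous 21% lungs. Its single-exposure samples were all below the other 4, with an interaction of 2.37 ± 0.19 (adjusted p = 1.7e-04, and 0.011 with the lot line as a block). Itpr1, a calcium release channel, and Atp2a2, the calcium pump that refills the store, had interactions of 1.69 ± 0.22 (adjusted p = 0.0017) and 1.90 ± 0.18 (adjusted p = 4.0e-04), with adjusted p of 0.081 and 0.027 under the lot block.

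Receptors that contract or relax smooth muscle were measured for 27 genes, of which 16 passed the filter. Of these, 6 rose and 1 fell in ventilated 100% against spontaneous 100% lungs, where 16.6% of all tested probe sets rose and 10.4% fell. In spontaneous 100% against spontaneous 21% lungs 1 rose and 3 fell, where 7.06% rose and 9.71% fell. Under the lot block 2 rose in the first comparison, and the second gave 0 calls by limma (1 higher and 2 lower at an unadjusted p under 0.05). Of all tested probe sets, 6.66% then rose in the first, and 1.35% rose and 1.09% fell in the second. Npr3, the natriuretic peptide clearance receptor, was the gene that rose in the second, by 1.18 ± 0.23 (adjusted p = 0.015, and 0.093 with the lot line as a block), and it was 1.74 ± 0.23 higher in ventilated 100% than in ventilated 21% lungs (adjusted p = 0.0016). F2r, the thrombin receptor, read 4912 and 4908 in ventilated 100% lungs, 3953 and 3958 in ventilated 21% lungs, 3917 and 3152.5 in spontaneous 100% lungs, and 6019 and 6081 in spontaneous 21% lungs. Npr1, the receptor for atrial natriuretic peptide, fell by 0.65 ± 0.12 in ventilated 21% against spontaneous 21% lungs (adjusted p = 0.012, and 0.2 with the lot line as a block) and was 0.78 ± 0.12 higher in ventilated 100% than in spontaneous 100% lungs (adjusted p = 0.0048). Ptgir, the prostacyclin receptor, changed the other way, by -1.22 ± 0.24 in ventilated 100% against spontaneous 100% lungs (adjusted p = 0.010, and 0.06 with the lot line as a block). Mylk, Srf and Myocd were not analysed here.

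The genes whose pattern came nearest to the mean of Acta2, Actg2, Tagln, Cnn1 and Myh11 were found among 3181 genes, by the Pearson r of log2 values over the 8 samples with 1 probe set per gene. The members themselves did not form 1 pattern, since their r to that mean was 0.92 for Myh11, 0.81 for Cnn1, 0.72 for Acta2 and 0.36 for Actg2, but -0.68 for Tagln. The nearest other genes were Dctn1 (0.98), Slc6a8 (0.97), Ackr3 (0.97), Mta1 (0.97), Slc12a2 (0.96), F2r (0.96), Myo1e (0.96) and Edn1 (0.96). Dctn1, a dynactin subunit, averaged 1192 ± 71.9 in ventilated 100% lungs, 794 ± 78.2 in ventilated 21% lungs, 609 ± 75.9 in spontaneous 100% lungs and 1447 ± 213 in spontaneous 21% lungs (SD, n = 2 each). Nearest to Des were Pdhx (0.95), Pdlim3 (0.92), Pdxkl1 (0.92), Hagh (0.91), Churc1 (0.91), Npw (0.90), Cd59b (0.90) and Cd63 (0.90). Pdlim3, which encodes a protein of the muscle Z-disc, averaged 959.5 ± 33.0 in ventilated 100% lungs, 1237 ± 6.61 in ventilated 21% lungs, 1196 ± 157 in spontaneous 100% lungs and 1094 ± 146 in spontaneous 21% lungs, and like Des it was lowest in ventilated 100% lungs.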

How the data were processed

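Lung RNA of 8 rat samples was measured on 9 oligonucleotide arrays. The values are the intensity of each probe set in the authors' deposited table, linear and already scaled, and the software and scanner settings are not given in the sources used here. Genes were named from the platform annotation, in which 7006 probe sets have 1 symbol, 308 several and 1426 none. The 8 genes and the other gene lists were chosen with earlier results of these data known.

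From the deposited intensities, log2 values were computed after setting negative readings to 0 and adding 40.0 (5% of the trimmed mean), the 2 arrays of 1 sample were averaged, 59 control probe sets were removed, and the lowest 40% by mean were not tested. limma 3.58.1 in R 4.3.3 (group means, moderated variance with a trend, Benjamini-Hochberg per comparison) gave changes and p-values. On simulated data the procedure was checked before use. Figures and sums used Python 3.11.15 and pandas 2.3.3. List sums add the intensity of the brightest probe set of each gene. Every member probe set is described, and from each other list the defining markers and up to 4 genes of smallest F-test p could be named. Promoters are RefSeq sequences on GRCr8.

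Samples with the same letter in different groups did not deviate together (r between -0.13 and 0.07 over 6 pairs of groups), so letters were not treated as pairs. Alternatives were quantile and cyclic loess normalization, added constants of 1% and 10%, no filter, either array of the repeated sample, a block for the letter, a block for the lot line, no variance trend, fits of the compared groups alone and leaving out each sample. The fit with the lot line block entered the arrays of the repeated sample apart.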

Additional observations from a re-analysis of the deposited data

Results flagged for a closer look

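For 8 of the 17 tested probe sets the ventilation change at 100% oxygen differed from that at 21% oxygen by the interaction test. The difference, on the log2 scale and with its SE, was 3.82 ± 0.36 for Myh11 X16262_s_at (adjusted p = 3.9e-04), 1.69 ± 0.22 for Acta2 X06801cds_i_at (adjusted p = 0.0016), 1.00 ± 0.15 for Acta2 rc_AA900769_s_at (adjusted p = 0.0029) and 0.76 ± 0.15 for Tpm1 M60666_s_at (adjusted p = 0.0080). It was -1.98 ± 0.39 for Tpm1 X02412_at (adjusted p = 0.0085), -1.13 ± 0.25 for Tpm1 M34134_s_at (adjusted p = 0.012), -1.02 ± 0.23 for rc_AI104567_g_at, which is annotated to both Acta2 and Actc1 (adjusted p = 0.014), and -0.62 ± 0.15 for Tagln M83107_g_at (adjusted p = 0.021). Of these, Myh11 alone was called with the lot line as a block (3.81, adjusted p = 0.023). With 2 samples per group, no sample could be tested for standing apart from its group.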

How the results depend on the processing

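No called change reversed under any alternative. Of 34 called changes of member probe sets over the 6 differences, 13 passed under every alternative listed with the methods, and 19 did so when the lot line block was set aside. The lot line block lost 20, the fit without a filter 8, cyclic loess 6, no variance trend 6, quantile normalization 4, fits of the compared groups alone 4, and the other constants 0 and 0, where limma was the test throughout. Ventilated 21% against spontaneous 21% gave 1 call, but 2 after quantile normalization, 2 without a filter and 0 with the lot block (1 at an unadjusted p under 0.05). The totals over all tested probe sets were then 760 of 5244, 490 of 8740 and 106 of 5244. With the lot block, spontaneous 100% against spontaneous 21% gave 2, ventilated 100% against ventilated 21% gave 2 and the interaction 1. Of all tested probe sets, 2.44%, 17.1% and 3.03% were called there. Ventilated 100% against spontaneous 21% gave 2 after quantile normalization and 0 without a filter, with the first array of the repeated sample alone or without a variance trend (7, 4 and 3 at an unadjusted p under 0.05). Those 4 fits called 670 of 5244, 397 of 8740, 627 of 5244 and 621 of 5244 tested probe sets. Fits of the arrays without the lot line, chosen after seeing the data, keep 1 ventilated 100% array. The members' median log2 change there was -0.20 for ventilated 100% against spontaneous 100% and 0.02 against ventilated 21%. Over all tested probe sets the medians were 0.07 and 0.08.

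Leaving out each sample in turn gave 1 to 2 calls for ventilated 21% against spontaneous 21%, 8 to 10 for ventilated 100% against spontaneous 100%, 5 to 8 for spontaneous 100% against spontaneous 21%, 2 to 5 for ventilated 100% against ventilated 21%, 0 to 1 for ventilated 100% against spontaneous 21%, 6 to 9 for the interaction and 7 to 10 for the F test. The low values came without either spontaneous 100% sample (5), without letter a of either ventilated group (2), without letter b of ventilated 21% (3) and, for the F test, without letter a of ventilated 100% (7). A group left with 1 sample is assumed to vary like the others. The number of calls over all tested probe sets also varied widely between these fits. The ranges of member calls therefore do not show whether members lost calls more often than other probe sets. The replicate block gave 10 calls for ventilated 100% against spontaneous 100%, 8 for spontaneous 100% against spontaneous 21% and 4 for ventilated 100% against ventilated 21%. Of all 5244 tested probe sets, it called 1213, 667 and 1661 in these comparisons. It lost Cnn1 in the first (0.46, adjusted p = 0.062) and Tagln M83107_g_at in the last (-0.33, adjusted p = 0.078). Readings near the bacterial controls, as for 4 member probe sets, limit what can be compared.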
